A study of Mus musculus with 13 samples.

Results

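The genes described here are 9 markers of brain regions that border the hippocampus, measured in hippocampal tissue. Of these, 4 are known as markers of neocortical neurons (Tbr1, Cplx3, Tshz2 and Rspo1) and 5 as markers of thalamus or midbrain (Tcf7l2, Tnnt1, Prkcd, Synpo2 and Vav3). They were picked by gene name from the 36287 genes of the deposited table, and all 9 were found. Poly(A) RNA from the hippocampus of 5xFAD mice was sequenced in bulk in 13 libraries. The saline group has 4 libraries (18, 19, 32 and 38), the Aducanumab group has 4 (24, 50, 56 and 58) and the ACLP-NT group has 5 (17, 27, 49, 53 and 55), each named by the number in its label. Every mouse in all 3 groups is 5xFAD, so the saline group carries the transgenes too, and no wild-type group was analysed here. 5xFAD mice are a model of amyloid deposition: the neuronal Thy1 promoter drives human transgenes that carry mutations of inherited Alzheimer's disease. Aducanumab is an antibody that binds aggregated amyloid beta. ACLP-NT is known here only by its code name. The sources used here do not give age, sex, dose, length of treatment or batch.

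The hippocampus lies directly under the neocortex and above the thalamus, and a dissected piece can carry a rim of either. Tbr1 encodes a T-box transcription factor of glutamatergic neurons of the cortex, strongest in deep layers, and neurons of the hippocampal formation express it as well. Cplx3 encodes a complexin, a regulator of synaptic vesicle fusion, and marks the deepest cortical layer, the subplate. Tshz2 encodes a zinc finger protein of deep-layer cortical neurons and of the retrosplenial area, which adjoins the hippocampus. Rspo1 encodes a secreted R-spondin that strengthens Wnt signals. Tcf7l2 encodes a TCF/LEF factor, which acts on DNA at the end of the Wnt pathway, and it marks thalamic neurons, though glia also express it. Tnnt1 encodes a troponin T of slow skeletal muscle, and its RNA is also a known marker of thalamic relay nuclei. Prkcd encodes the delta form of protein kinase C and is abundant in relay neurons of the thalamus. Synpo2 encodes an actin-binding protein of the synaptopodin family, and Vav3 an exchange factor for small GTPases.

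Promoter sequence is shown for 3 of the genes. Tcf7l2 and Tnnt1 are the 2 genes of the 9 that rose farthest above the other libraries in 1 library, Aducanumab 50. Tbr1 is the only gene of the 9 with a TCF/LEF motif in its promoter. These 3 were chosen after their values were seen. Sequences are those of RefSeq on GRCm38.p6, where all 9 genes matched, with 13 promoter windows of 300 bases between them. The 250 bases before the start site are printed in the direction of transcription, and capitals mark the motif. Tcf7l2 is at chr19:55741560-55741809 on the plus strand, Tnnt1 at chr7:4515976-4516225 on the minus strand and Tbr1 at chr2:61804203-61804452 on the plus strand.
Tcf7l2: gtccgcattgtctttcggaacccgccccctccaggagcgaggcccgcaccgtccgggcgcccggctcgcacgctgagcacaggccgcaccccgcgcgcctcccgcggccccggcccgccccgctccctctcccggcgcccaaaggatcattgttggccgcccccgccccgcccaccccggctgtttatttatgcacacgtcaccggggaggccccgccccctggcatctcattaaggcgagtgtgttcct
Tnnt1: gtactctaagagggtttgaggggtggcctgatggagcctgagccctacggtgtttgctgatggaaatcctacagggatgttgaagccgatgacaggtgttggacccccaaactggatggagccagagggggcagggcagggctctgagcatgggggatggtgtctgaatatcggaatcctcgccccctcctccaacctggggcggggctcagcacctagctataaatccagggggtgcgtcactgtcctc
Tbr1: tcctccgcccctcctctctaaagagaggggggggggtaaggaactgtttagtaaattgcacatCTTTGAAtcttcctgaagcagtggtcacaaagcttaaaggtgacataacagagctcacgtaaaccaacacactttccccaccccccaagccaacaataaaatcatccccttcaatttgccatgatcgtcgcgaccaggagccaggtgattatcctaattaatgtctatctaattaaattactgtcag
The TCF/LEF motif was searched as CTTTGAA or CTTTGAT on both strands, and the T-box motif as AGGTGTGA on both strands; neither overlaps the other. CTTTGAA was present in the Tbr1 window alone, on the strand printed, and 8.65% of all 32851 promoter windows of that length hold one of the 2 TCF/LEF forms. No window of the 9 genes held the T-box letters, which occur in 1.28% of all windows. GC content over the 300 bases of these windows was 70.0% in Tcf7l2, 58.3% in Tnnt1 and 46.0% in Tbr1, with a median of 52.7% over all windows. Tcf7l2 has a second window, not printed, with 42.0% GC.

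Levels are given as FPKM (fragments counted per gene length and library size, deposited by the authors), which allow genes of different length to be compared. No marker was listed at 0 in any library. Group means are given with their SD. Differences between groups were tested on the deposited counts of 22065 genes with edgeR's quasi-likelihood test and are log2 fold changes with their standard error (SE). A gene was called where the Benjamini-Hochberg adjusted p over all 22065 genes was below 0.05. Library totals ran from 57513570 to 69734713 counts (saline), from 56858092 to 64431803 (Aducanumab) and from 53642019 to 64874729 (ACLP-NT). In bulk tissue, fewer cells of a type and less RNA per cell cannot be told apart, and neither can RNA of a neighbouring region and RNA that hippocampal cells make themselves.

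None of the 9 markers was called in any comparison, and neither was any other gene: the called share was 0% in ACLP-NT against saline, 0% in Aducanumab against saline and 0% in ACLP-NT against Aducanumab. The smallest adjusted p of any gene was 0.722, 0.485 and 1.0 in that order. At an unadjusted p below 0.05 the same comparisons held 1298 genes (5.88%), 1033 genes (4.68%) and 716 genes (3.24%). DESeq2 called 9 (0.0483%), 16 (0.074%) and 3 (0.0136%) genes, none of them a marker of the 9, and gave Tnnt1 no p-value. Saline is shared by the first pair of comparisons and Aducanumab by the last pair, so their values are not independent of each other.

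All 4 neocortical markers had their highest group mean in saline; 3 had the lowest in Aducanumab and Rspo1 had it in ACLP-NT. Tbr1 (ENSMUSG00000035033, chromosome 2, 61633274 to 61644458, plus strand, as the table prints it) was the most abundant of them. In saline its FPKM was 9.55 in library 18, 8.14 in 19, 5.93 in 32 and 6.64 in 38. Aducanumab gave 5.04 in 24, 5.49 in 50, 5.80 in 56 and 5.38 in 58. ACLP-NT gave 5.27 in 17, 6.78 in 27, 6.49 in 49, 5.83 in 53 and 7.0 in 55. Every Aducanumab library was below every saline library, while ACLP-NT overlapped both groups. Means were 7.57 ± 1.61 (SD, n = 4) in saline, 5.43 ± 0.313 (SD, n = 4) in Aducanumab and 6.27 ± 0.714 (SD, n = 5) in ACLP-NT. The Aducanumab difference from saline was -0.48 on the log2 scale (SE 0.129, unadjusted p = 0.00230, edgeR adjusted p = 0.910). Of all tested genes, 1.41% had Aducanumab wholly below saline, and Tbr1 ranked 54th by p. ACLP-NT differed from saline by -0.27 (SE 0.121, edgeR adjusted p = 0.831), and by -0.14 without saline 18, the library with the most Tbr1.

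Cplx3 (ENSMUSG00000039714, chromosome 9, 57507275 to 57513564, minus strand) varied more between mice. Saline libraries 18, 19, 32 and 38 had 2.18, 2.27, 0.631 and 1.43 FPKM. Aducanumab libraries 24, 50, 56 and 58 had 0.317, 0.947, 0.314 and 0.520. ACLP-NT libraries 17, 27, 49, 53 and 55 had 0.689, 1.64, 0.852, 0.525 and 1.25. Saline 32 lay within the Aducanumab range, so the groups overlapped, and the other 3 saline libraries were above all of Aducanumab. The means were 1.63 ± 0.762 (SD, n = 4) in saline, 0.524 ± 0.298 (SD, n = 4) in Aducanumab and 0.990 ± 0.450 (SD, n = 5) in ACLP-NT. Against saline, Aducanumab differed by -1.63 (SE 0.460, unadjusted p = 0.00326, edgeR adjusted p = 0.938), the largest difference of the 4 neocortical genes, and by -2.07 without Aducanumab 50. ACLP-NT differed from saline by -0.71 (SE 0.419, edgeR adjusted p = 0.886).

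Tshz2 (ENSMUSG00000047907, chromosome 2, 169474933 to 169913736, plus strand) had 9.99, 3.86, 4.08 and 7.38 FPKM in saline 18, 19, 32 and 38. In Aducanumab 24, 50, 56 and 58 it had 1.89, 4.02, 1.13 and 3.5. In ACLP-NT 17, 27, 49, 53 and 55 it had 4.25, 5.24, 4.79, 2.62 and 3.24. Saline 18 and 38 stood above all other libraries, and saline 19 and 32 lay at the level of ACLP-NT. Group means were 6.33 ± 2.92 (SD, n = 4), 2.63 ± 1.35 (SD, n = 4) and 4.03 ± 1.09 (SD, n = 5) FPKM for saline, Aducanumab and ACLP-NT. Aducanumab differed from saline by -1.27 (SE 0.380, unadjusted p = 0.00492, edgeR adjusted p = 0.944). ACLP-NT differed by -0.65 (SE 0.352, edgeR adjusted p = 0.871), and by -0.34 without saline 18.

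Rspo1 (ENSMUSG00000028871, chromosome 4, 124880223 to 124902892, plus strand) was the least abundant of the 4. Its FPKM in saline 18, 19, 32 and 38 was 0.543, 1.33, 0.290 and 0.636. The Aducanumab libraries 24, 50, 56 and 58 had 0.209, 0.592, 0.361 and 0.491. The ACLP-NT libraries 17, 27, 49, 53 and 55 had 0.471, 0.420, 0.576, 0.150 and 0.250. Saline 19 alone exceeded 1 FPKM, and the other 12 libraries of the 3 groups overlapped. The lowest value, in ACLP-NT 53, rested on 18 counts (95% Poisson interval 10.7 to 28.4, counting error only). The Rspo1 means were 0.700 ± 0.445 (SD, n = 4) in saline, 0.413 ± 0.166 (SD, n = 4) in Aducanumab and 0.374 ± 0.172 (SD, n = 5) in ACLP-NT. Aducanumab differed from saline by -0.74 (SE 0.468, edgeR adjusted p = 1.0) and ACLP-NT by -0.88 (SE 0.440, edgeR adjusted p = 0.848). Without saline 19 these differences were -0.23 and -0.37.

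**Figure D1:**
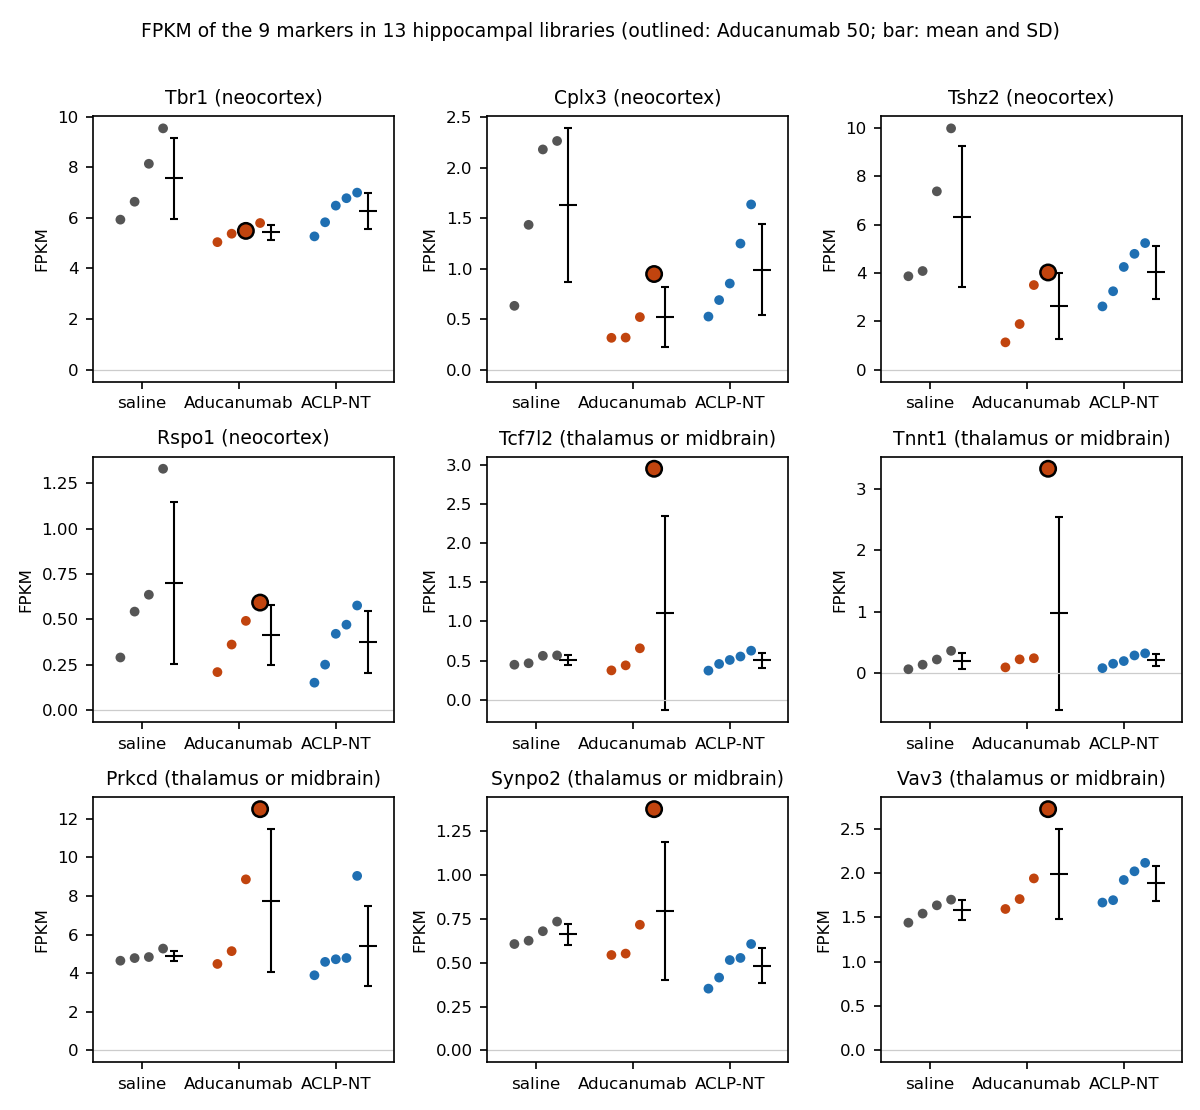
FPKM (vertical axes) of the 9 markers in each library, grouped by treatment, with the mean and SD of each group beside its points and Aducanumab 50 outlined. The neocortical genes spread widely within saline, with Tbr1 from 5.93 to 9.55, and all 5 thalamus or midbrain genes are highest in Aducanumab 50.

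Among the thalamus or midbrain markers, 1 library stood apart. Tcf7l2 (ENSMUSG00000024985, chromosome 19, 55730252 to 55921685, plus strand) had 2.95 FPKM in Aducanumab 50. Aducanumab 24, 56 and 58 had 0.438, 0.374 and 0.656. Saline 18, 19, 32 and 38 had 0.446, 0.465, 0.566 and 0.560. All 5 ACLP-NT libraries lay between 0.371 and 0.626, in the range of the other groups. Aducanumab 50 was thus 6.07 times the median of the other 12 libraries, and those 12 stayed within a narrow band. The group means were 0.509 ± 0.0624 (SD, n = 4) in saline, 1.10 ± 1.24 (SD, n = 4) in Aducanumab and 0.502 ± 0.0962 (SD, n = 5) in ACLP-NT. Without Aducanumab 50 the Aducanumab mean was 0.489 ± 0.148 (SD, n = 3). Aducanumab differed from saline by 1.10 on the log2 scale (SE 0.504, edgeR adjusted p = 1.0) with this library and by -0.06 without it.

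Tnnt1 (ENSMUSG00000064179, chromosome 7, 4507569 to 4519003, minus strand) showed the widest gap. Aducanumab 50 had 3.33 FPKM, from 448 counts (95% Poisson interval 407 to 491). The other Aducanumab libraries 24, 56 and 58 had 0.0906, 0.222 and 0.240 FPKM. In saline 18, 19, 32 and 38 it was 0.0603, 0.360, 0.135 and 0.219, the first from 9 counts (interval 4.12 to 17.1). ACLP-NT 17, 27, 49, 53 and 55 had 0.194, 0.150, 0.320, 0.285 and 0.0781, and the 12 libraries other than Aducanumab 50 overlapped across all groups. Those 12 libraries held 9 to 56 Tnnt1 counts each. The ratio of Aducanumab 50 to the median of the others was 16.2 for Tnnt1. Among all 22065 tested genes, Tnnt1 ranked 2nd and Tcf7l2 8th by how far Aducanumab 50 exceeded the next highest library in counts scaled to library size (CPM, after TMM), by 8.70 and 4.52 times. The Tnnt1 means were 0.194 ± 0.129 (SD, n = 4) in saline, 0.971 ± 1.58 (SD, n = 4) in Aducanumab and 0.205 ± 0.0985 (SD, n = 5) in ACLP-NT. Aducanumab differed from saline by 2.25 (SE 0.926, edgeR adjusted p = 1.0) and by -0.10 without Aducanumab 50.

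Prkcd (ENSMUSG00000021948, chromosome 14, 30317311 to 30348167, minus strand) was the most abundant of the 5. Its FPKM was 4.65, 4.78, 5.28 and 4.84 in saline 18, 19, 32 and 38. It was 4.48, 12.5, 5.14 and 8.86 in Aducanumab 24, 50, 56 and 58. It was 4.72, 3.89, 9.04, 4.79 and 4.59 in ACLP-NT 17, 27, 49, 53 and 55. Saline was even, and 3 treated libraries stood above it: Aducanumab 50, Aducanumab 58 and ACLP-NT 49. In Aducanumab 58 and ACLP-NT 49, Tcf7l2 was 0.656 and 0.551 FPKM and Tnnt1 0.240 and 0.320, so there Prkcd was high with Tcf7l2 and Tnnt1 far below their level in Aducanumab 50. Prkcd means were 4.89 ± 0.272 (SD, n = 4), 7.75 ± 3.71 (SD, n = 4) and 5.41 ± 2.06 (SD, n = 5) FPKM in saline, Aducanumab and ACLP-NT. Aducanumab differed from saline by 0.66 (SE 0.293, edgeR adjusted p = 1.0), by 0.33 without Aducanumab 50 and by 0.60 without Aducanumab 58. ACLP-NT differed from saline by 0.14 (SE 0.278, edgeR adjusted p = 0.977) and by -0.11 without ACLP-NT 49.

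Synpo2 (ENSMUSG00000050315, chromosome 3, 122870168 to 123029745, minus strand) had 0.606, 0.735, 0.680 and 0.625 FPKM in saline 18, 19, 32 and 38. It had 0.544, 1.38, 0.552 and 0.716 in Aducanumab 24, 50, 56 and 58. It had 0.415, 0.352, 0.607, 0.515 and 0.527 in ACLP-NT 17, 27, 49, 53 and 55. ACLP-NT was the lowest group, and ACLP-NT 49 and saline 18 met at nearly the same FPKM. In TMM-scaled CPM every ACLP-NT library was below every saline library, as for 1.33% of all tested genes. Synpo2 means were 0.662 ± 0.0577 (SD, n = 4), 0.797 ± 0.394 (SD, n = 4) and 0.483 ± 0.10 (SD, n = 5) FPKM in saline, Aducanumab and ACLP-NT. ACLP-NT differed from saline by -0.45 (SE 0.240, unadjusted p = 0.0814, edgeR adjusted p = 0.861). In the fit without Aducanumab 50, a library of neither group, it was again -0.45 (SE 0.145, unadjusted p = 0.00820, edgeR adjusted p = 0.755). ACLP-NT differed from Aducanumab by -0.72 (SE 0.239, unadjusted p = 0.00979, edgeR adjusted p = 1.0), the smallest p of the 9 genes in that comparison, and by -0.32 without Aducanumab 50.

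Vav3 (ENSMUSG00000033721, chromosome 3, 109247969 to 109593014, plus strand) showed the smallest gap, with Aducanumab 50 at 1.60 times the median of the other libraries. Saline 18, 19, 32 and 38 had 1.64, 1.44, 1.70 and 1.54 FPKM. Aducanumab 24, 50, 56 and 58 had 1.94, 2.72, 1.60 and 1.71. ACLP-NT 17, 27, 49, 53 and 55 had 1.92, 1.69, 1.67, 2.12 and 2.02. Aducanumab 50 was again highest, with saline at the low end and overlap between the groups. Mean levels were 1.58 ± 0.113 (SD, n = 4) in saline, 1.99 ± 0.508 (SD, n = 4) in Aducanumab and 1.88 ± 0.198 (SD, n = 5) in ACLP-NT. Vav3 differed from saline by 0.33 (SE 0.147, edgeR adjusted p = 1.0) in Aducanumab, 0.15 without Aducanumab 50, and by 0.25 (SE 0.139, edgeR adjusted p = 0.871) in ACLP-NT.

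Side by side, the 2 sets of genes gave different pictures. In Aducanumab against saline, 4 of 4 neocortical markers had a negative fold change (48.7% of all genes), with a median of -1.01, and 3 had an unadjusted p below 0.05, where 2.62% of all genes were lower at that p. In ACLP-NT against saline, again 4 of 4 were negative (50.6% of all genes), with a median of -0.68, and 1, Tbr1, had an unadjusted p below 0.05 (3.43% of all genes). The median over all genes was 0.00 in both. All 4 neocortical genes stayed negative in both comparisons when any single library was left out. For ACLP-NT against Aducanumab, 3 of 4 were positive (47.6% of all genes), with Cplx3 at 0.92 (SE 0.438, edgeR adjusted p = 1.0). Rspo1 was at -0.14 there, and at 0.08 without Aducanumab 50.

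For the thalamus or midbrain genes, 5 of 5 were higher in Aducanumab than in saline (51.3% of all genes), with a median of 0.66, and 4 had an unadjusted p below 0.05 (2.07% of all genes). Without Aducanumab 50, 2 of 5 were higher, the median was -0.06, and 0 had an unadjusted p below 0.05 (5.66% of all genes in that fit). In ACLP-NT against Aducanumab, 5 of 5 were lower (52.4% of all genes) and 3 (Tcf7l2, Tnnt1 and Synpo2) had an unadjusted p below 0.05 (1.71% of all genes). Without Aducanumab 50, 2 of 5 were lower in that comparison. In ACLP-NT against saline, 3 of 5 were higher (49.4% of all genes), with a median of 0.04, and 1 of 5 was higher without ACLP-NT 49. There 0 had an unadjusted p below 0.05 with all libraries. In the fit without Aducanumab 50, 2 did, Synpo2 (lower) and Vav3 (higher), as did 5.95% of all genes.

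**Figure D2:**
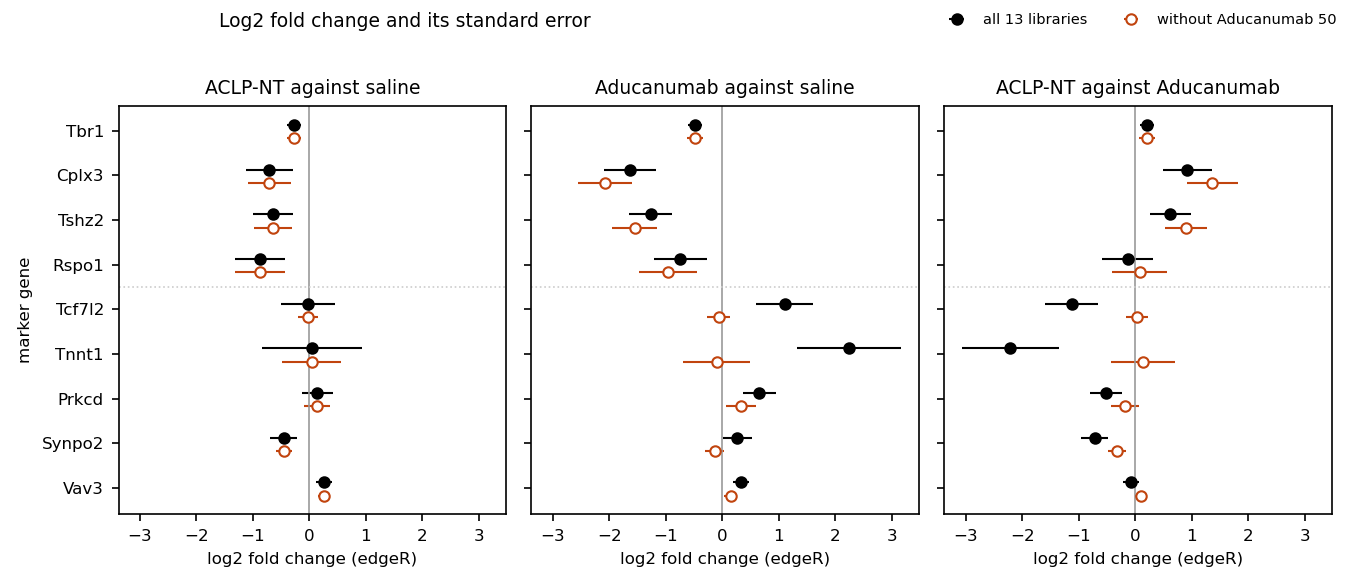
Log2 fold change (horizontal axes, point) and its SE (bar) of each marker in the 3 comparisons, with all 13 libraries and without Aducanumab 50. Leaving that library out moves Tcf7l2 from 1.10 to -0.06 and Tnnt1 from 2.25 to -0.10 in Aducanumab against saline, while Tbr1 is -0.48 both ways.

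Other known markers of the same regions were read beside the 9. Aducanumab 50 was the highest of the 13 libraries for 5 of 5 thalamus or midbrain genes and for 0 of 4 neocortical genes, and for 7.37% of all tested genes. It was also highest for 12 of 15 other thalamus markers, with a median ratio of 2.25 to the median of the other libraries. Shox2, a homeobox gene of thalamic and midbrain neurons, had 2.80 FPKM in Aducanumab 50 and 0 to 0.110 elsewhere. Gbx2, a homeobox gene of the developing thalamus, had 0.484 against 0 to 0.0793. Ramp3, a receptor activity-modifying protein, had 6.04 against 0.867 to 2.15, and Rgs16, a regulator of G protein signalling, had 8.21 against 1.2 to 2.92. Slc17a6, the vesicular glutamate transporter typical of subcortical neurons, had 6.79 against 0.508 to 4.85. The 3 thalamus markers not highest there were Calb2, Zic1 and Lhx9.

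Aducanumab 58 and ACLP-NT 49, where Prkcd was high, had a partly different set. Zic1, a zinc finger factor, had 11.3 and 10.1 FPKM in them, 5.85 in Aducanumab 50 and 1.69 to 3.98 in the other 10 libraries. Calb2, which encodes the calcium-binding protein calretinin, had 21.2 and 28.5, against 19.3 in Aducanumab 50 and 8.84 to 16.2 in the others. Shox2 had 0.0384 in Aducanumab 58 and was listed at 0 in ACLP-NT 49. So these 2 libraries were high for Prkcd, Zic1 and Calb2, as Aducanumab 50 was, but far below it for Shox2, Tnnt1 and Tcf7l2. Even so, Aducanumab 58 ranked 2nd of the 13 libraries for Tcf7l2. Plcb4, also on the thalamus list, had 3.70 and 3.77 FPKM in them, 4.84 in Aducanumab 50 and 1.46 to 2.92 in the others. The other thalamus markers summed to 330 and 335 CPM in them, 439 in Aducanumab 50 and 196 to 252 in the others. Aducanumab 58 was also the highest library for 8 of 15 choroid plexus, 10 of 11 meningeal fibroblast and 5 of 5 blood cell markers, and for 16.2% of all tested genes; their part in its Prkcd level was not tested.

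Markers of other regions gave a mixed picture in Aducanumab 50. Of 11 midbrain markers, 5 passed the filter on low counts and 4 of these, Gata3, Tfap2b, Th and Slc6a3, were highest there, all at 0.589 FPKM or less. Gata3 passed the filter only through the Aducanumab libraries, with 15, 39, 11 and 30 counts in 24, 50, 56 and 58. Its counts in saline and ACLP-NT were 0 to 7, so its higher level in Aducanumab was a condition of being tested. Aducanumab 50 was highest for 2 of 7 tested habenula markers, 1 of 8 hypothalamus markers and 0 of 10 striatum markers. The median ratio to the median of the other libraries was 1.11, 2.90 and 1.06 for these lists in turn. For hypothalamus, 5 of the 8 were over 2 times that median. That list was low in level, with a sum of 6.72 CPM there and 2.27 to 14.2 elsewhere. It was highest for 2 of 20 other neocortex markers and 0 of 19 hippocampal subfield markers. The summed level of the hippocampal list there was 1399.6 CPM, against 1172 to 1571 in the other libraries. Choroid plexus markers were low: they summed to 95.3 CPM there, against 58.7 to 5563 elsewhere, and Ttr, the transthyretin gene that defines choroid plexus, had 38.1 FPKM against 16.4 to 3625.

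**Figure D3:**
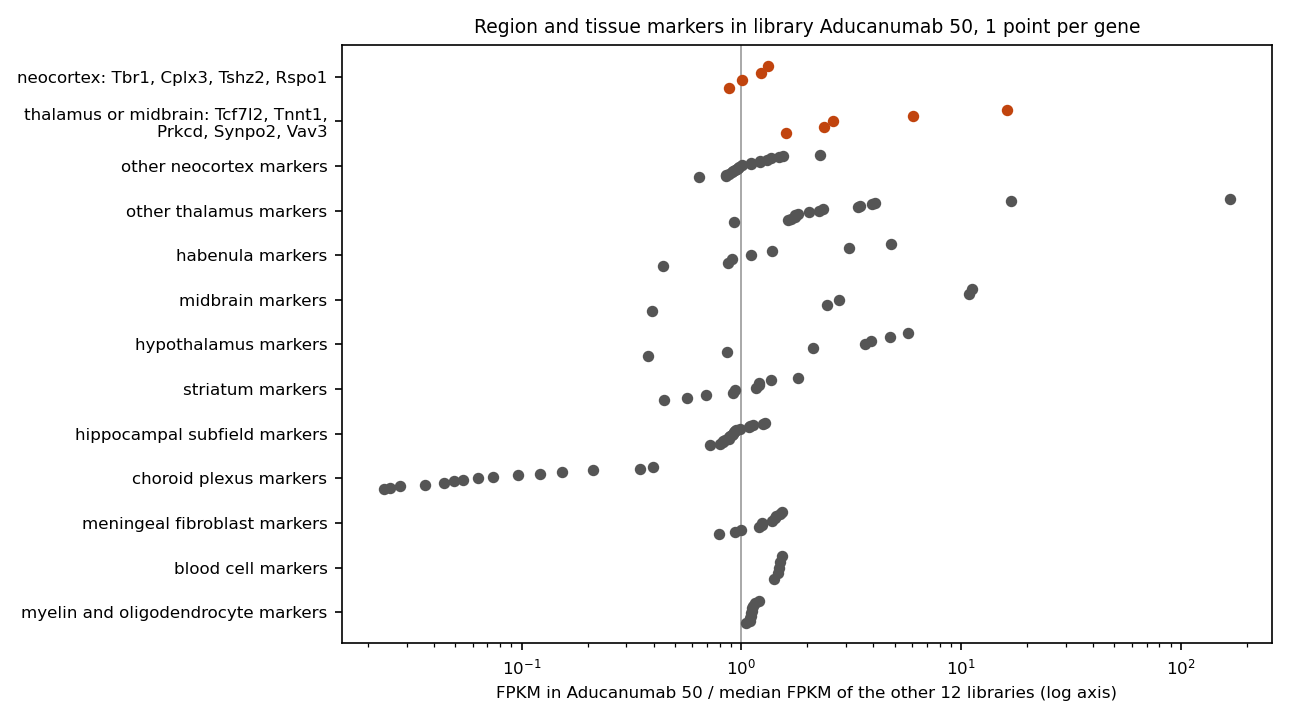
FPKM in Aducanumab 50 divided by the median of the other 12 libraries (horizontal log axis), 1 point per tested gene with a ratio above 0, in 13 marker lists. The 5 thalamus or midbrain genes lie between 1.60 and 16.2, while the 4 neocortical genes lie between 0.884 and 1.33.

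The neocortical genes pointed to other libraries. Saline 18 was highest for Tbr1 and Tshz2, and saline 19 for Cplx3 and Rspo1. The same libraries were highest for 5 and 9 of 20 other neocortex markers, and for 9.91% and 10.3% of all tested genes. Otof, the gene of otoferlin, had 5.93 FPKM in saline 19 and 0.589 to 2.19 elsewhere. The 4 neocortical genes together ran from 71.9 to 148 CPM in the saline libraries, 45.6 to 70.4 in the Aducanumab ones and 58.3 to 90.3 in the ACLP-NT ones. The other neocortex markers together had 637 to 863, 639 to 690 and 624 to 748 CPM, so these sums overlapped. Those of the 4 genes missed overlap between saline and Aducanumab only narrowly, with 71.9 CPM in saline 32 and 70.4 in Aducanumab 50. Taken singly, Cplx3, Tshz2 and Rspo1 overlapped between these groups.

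Of the 20 other neocortex markers, 14 were lower in Aducanumab than in saline, with a median of -0.08, and 17 were lower in ACLP-NT, with a median of -0.18. At an unadjusted edgeR p below 0.05, 5 were lower in Aducanumab (2.62% of all genes) and 3 in ACLP-NT (3.43% of all genes). In both comparisons 0 were higher at that p. None was called. Mef2c, a transcription factor of cortical neurons, differed by -0.53 in Aducanumab against saline (SE 0.170, edgeR adjusted p = 1.0). In ACLP-NT against saline the smallest p values of the list were those of Otof at -1.28 (SE 0.521, edgeR adjusted p = 0.795) and of Nxph4, a neurexophilin of deep cortical layers, at -0.93 (SE 0.382, edgeR adjusted p = 0.796). Saline 19 holds the high Otof value.

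Of the 15 other thalamus markers, 14 were higher in Aducanumab than in saline (median 0.33) and 15 were lower in ACLP-NT than in Aducanumab (median -0.32). Without Aducanumab 50 those counts were 7 and 6, with medians of -0.10 and 0.06, the same dependence on 1 library as in the 5 genes. Shox2 differed by 4.37 in Aducanumab against saline (SE 1.73, edgeR adjusted p = 1.0) and by -0.84 without that library. Gbx2 differed by 2.30 (SE 0.904, edgeR adjusted p = 1.0) and by 1.16 without it. Its counts were low: 11, 65, 13 and 11 in Aducanumab 24, 50, 56 and 58, and 0 to 10 elsewhere. Gbx2 passed the filter on low counts only through the Aducanumab libraries. Its higher level there, also within the counts of genes above, was thus a condition of being tested. In ACLP-NT against saline, 7 of the 15 were higher and 8 lower.

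Hippocampal markers were opposite to the neocortical set in count: 16 of 19 were higher in ACLP-NT than in saline (median 0.20) and 15 of 19 in Aducanumab (median 0.10), with none called. Tdo2, tryptophan dioxygenase of dentate granule cells, differed by 0.49 in ACLP-NT against saline (SE 0.155, edgeR adjusted p = 0.746). Grik4, a kainate receptor subunit of CA3, differed by 0.36 in Aducanumab against saline (SE 0.106, edgeR adjusted p = 0.938). Wfs1, a marker of CA1, differed there by -0.39 (SE 0.145, edgeR adjusted p = 1.0). Hippocampal sums reached 1172 to 1463 CPM (saline), 1291 to 1505 (Aducanumab) and 1402 to 1571 (ACLP-NT), and their part in the neocortical differences was not tested.

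**Figure D4:**
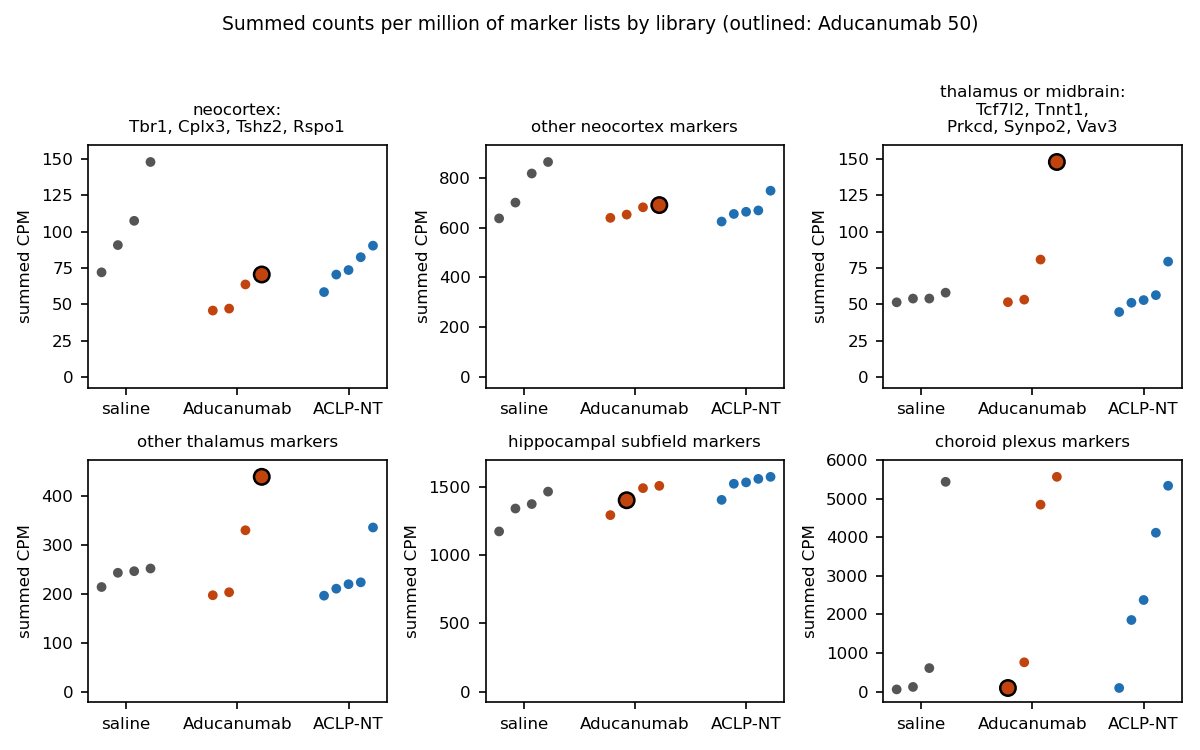
Summed CPM (vertical axes, a separate scale per panel) of 6 marker lists in each library by treatment, with Aducanumab 50 outlined. It has the highest sum for both thalamus lists, 148 and 439 CPM, and an intermediate one for hippocampal subfield markers.

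Whether markers of a region varied together was examined over the 13 libraries for all 36 pairs of the 9 genes, on log2 CPM with a prior count of 2. By Pearson's r, 5 pairs passed an adjusted permutation p of 0.05, and 0 did by Spearman's rank correlation. Tbr1 and Cplx3 had r = 0.83 (permutation p = 0.00016, adjusted 0.00576) and a Spearman coefficient of 0.80 (permutation p = 0.00141, adjusted 0.0508). Without saline 18 and 19, the libraries farthest from the median of Tbr1, r was 0.74. Cplx3 and Tshz2 had r = 0.79 (permutation p = 0.00079, adjusted 0.0142) and a Spearman coefficient of 0.69 (permutation p = 0.0112, adjusted 0.101), and r was 0.83 without the same 2 libraries. With group means subtracted, Tbr1 and Cplx3 had r = 0.68 (adjusted permutation p = 0.0464), while Cplx3 and Tshz2 did not pass (r = 0.61, adjusted permutation p = 0.102). These permutations ran over all 13 libraries and did not allow for the means subtracted, so their p-values tend to be too small. Whether Tbr1 and Cplx3 pass within groups is therefore not settled. All 6 neocortical pairs were positive over the 13 libraries, from 0.44 to 0.83.

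The 3 other pairs that passed were all among thalamus or midbrain genes. Prkcd and Synpo2 had r = 0.76 (permutation p = 0.00202, adjusted 0.0242) and a Spearman coefficient of 0.73 (permutation p = 0.00611, adjusted 0.0926). Tcf7l2 and Prkcd had r = 0.77 (permutation p = 0.00582, adjusted 0.0419) and a Spearman coefficient of 0.57 (permutation p = 0.0452, adjusted 0.181). Tnnt1 and Prkcd had r = 0.76 (permutation p = 0.00505, adjusted 0.0419) and a Spearman coefficient of 0.72 (permutation p = 0.00772, adjusted 0.0926). Leaving out the 2 libraries farthest on the first gene, Aducanumab 50 among them, brought these r to 0.57, 0.44 and 0.43. Without Aducanumab 50 alone, 0 of the 10 thalamus or midbrain pairs passed and r ran from -0.49 to 0.49. Spearman coefficients without it were 0.66 for Prkcd and Synpo2, 0.45 for Tcf7l2 and Prkcd and 0.64 for Tnnt1 and Prkcd. The size of Pearson's r in these pairs thus rested largely on that library, and their rank order less so. Both neocortical pairs still passed without it, with r = 0.87 and 0.79. Rspo1 and Vav3, from different sets, then also passed, with r = -0.86 (adjusted permutation p = 0.00432). Over all 13 libraries they had r = -0.43. Aducanumab 50 was the highest library for all 5 thalamus or midbrain genes, and the libraries left without it still differ. Among them, Prkcd had 8.86 FPKM in Aducanumab 58, 9.04 in ACLP-NT 49 and 5.28 or less in the rest. No clustering of the libraries was run. The labels give no batch in which the relations could be repeated.

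**Figure D5:**
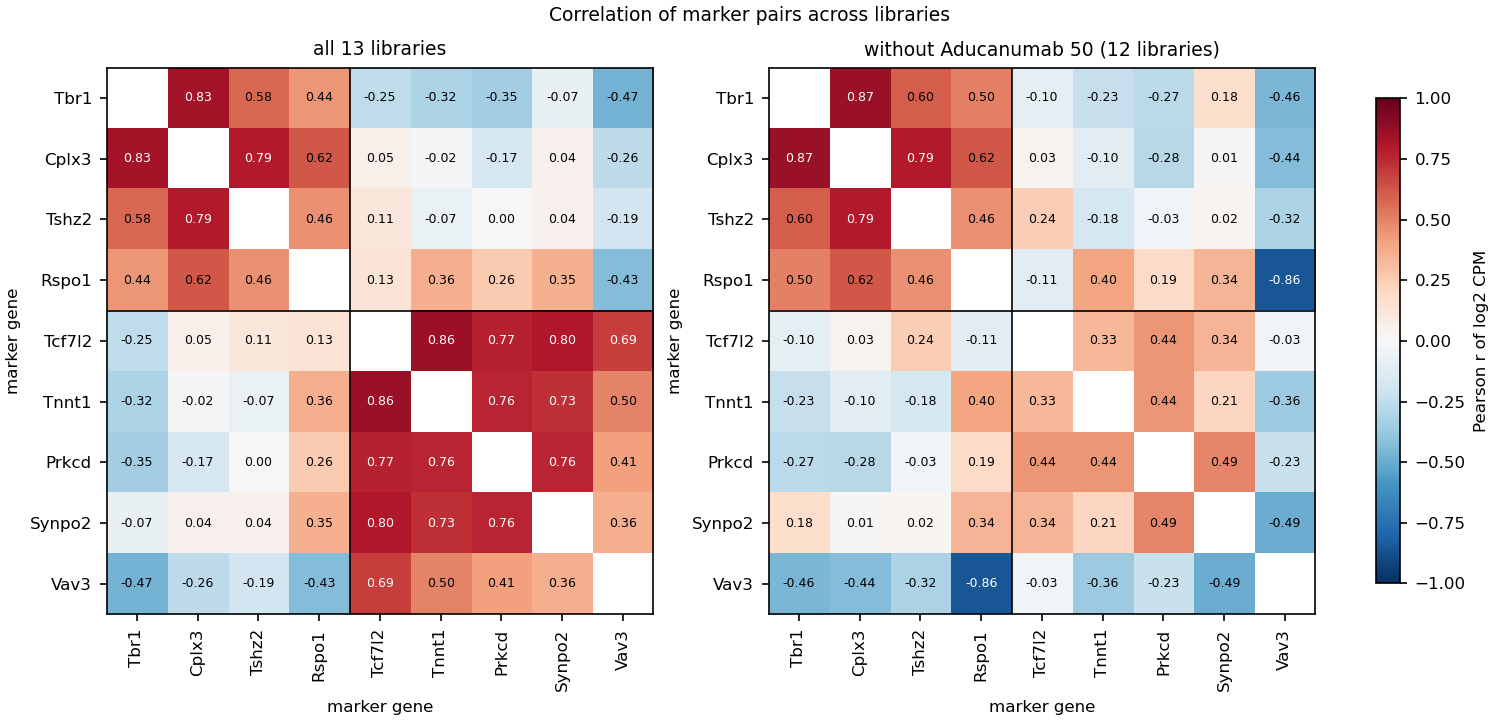
Pearson's r of log2 CPM for each pair of the 9 markers (both axes list the genes) over all 13 libraries and over the 12 without Aducanumab 50, with the colour and printed value giving r. The block of thalamus or midbrain genes is positive with all libraries, from 0.36 to 0.86, and mixed in sign without Aducanumab 50, while the neocortical block stays positive.

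The genes most like each marker over the 13 libraries, by Pearson's r of log2 CPM across all tested genes, are given as a description with no test. For Cplx3 they were Elapor1 (r = 0.95), Sgcz (0.95) and Gsg1l (0.94), and the same 3 genes led without Aducanumab 50. For Tbr1 they were Atp2b2, a plasma membrane calcium pump (0.90), Pappa2 (0.89) and Efhd2 (0.87). Tshz2 varied most like Bglap3 (0.93), Rxfp1, a relaxin receptor (0.92), and Nxph3, a neurexophilin (0.91). Rspo1 varied most like Glra2, a glycine receptor subunit (0.91), Sox6 (0.90) and Plekho2 (0.89). Without Aducanumab 50, Tbr1 kept only Atp2b2 among its nearest genes and Rspo1 only Glra2, while Tshz2 kept Bglap3 and Rxfp1.

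For the thalamus or midbrain genes, the nearest genes changed when Aducanumab 50 was left out, but not every r rested on it. Tcf7l2 was nearest to Plekhg1 (0.91), Pdp1 (0.89) and Rgs16 (0.88), and Tnnt1 to Ramp3 (0.89), Pdp1 (0.86) and Tcf7l2 (0.86). Plekhg1, Rgs16 and Ramp3 are on the thalamus list above. Prkcd was nearest to Ret, a receptor tyrosine kinase (0.88), Amotl1 (0.87) and Grid2ip (0.87). Synpo2 was nearest to Inpp5a (0.92), Haus1 (0.90) and Slc6a9, a glycine transporter (0.90), and Vav3 to Plrg1 (0.84), Rbm45 (0.82) and Elp4 (0.81). Without Aducanumab 50, none of these 15 places was kept: Tcf7l2 was then nearest to Lrp4 (0.92), Tnnt1 to Emcn (0.91), Prkcd to Dnah3 (0.92) and Synpo2 to Cxcl9 (0.92). The r of the first 15 pairs was also taken without the 2 libraries farthest on the marker, Aducanumab 50 among them. It then ran from 0.28 for Tnnt1 and Tcf7l2 to 0.81 for Vav3 and Plrg1, with 0.80 for Tcf7l2 and Plekhg1.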

How the data were processed

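The authors deposited 1 table with 2 values per gene and library. Counts are whole numbers, deposited without normalization, and the other value is FPKM, which the authors computed per gene length and library size, per the file headers. Per the submitters' processing notes, the tools included HISAT2 2.0.4, StringTie 1.3.4d, cutadapt 1.9 and edgeR. The sources used here do not give the counter, annotation or genome build, so gene positions are as the table prints them, while promoter positions are those of RefSeq on GRCm38.p6. The gene length that a count and its FPKM imply was checked over 15196 genes: the median ratio of its highest to its lowest value over the libraries was 1.01.

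Counts were filtered (filterByExpr, 22065 of 36287 genes kept, all 9 markers among them), scaled by TMM and fitted with edgeR 4.0.16 in R 4.3.3 (glmQLFit, glmQLFTest, two-sided, 3 groups in 1 fit, common biological coefficient of variation 0.226). Adjustment was Benjamini-Hochberg over all tested genes. The SE was taken from the F statistic (size of the log2 fold change over the root of F). Pairs were tested with 100000 permutations, two-sided. Alternatives used DESeq2 1.42.0, limma 3.58.1 on log2(FPKM + 1) and log2(FPKM + 0.1), other scalings and filters, only the compared groups, and each library left out. Values without Aducanumab 50 for lists and nearest genes were added after seeing the data. The script was tested on simulated data. The markers, lists and rules were chosen with earlier results of these data known. Named genes were the 9 markers, the 3 genes nearest to each and the 2 genes of each list with the smallest p; other list genes, named for their level in single libraries, were chosen after their values were seen, and the genes named by the rule in the minor lists, and a few others it names, are not reported here. Library numbers in the labels are read as separate mice; p-values measure only the spread between these samples.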

Additional observations from a re-analysis of the deposited data

Results flagged for a closer look

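Tcf7l2 in Aducanumab 50 (2.95 FPKM) was far above the other 3 Aducanumab libraries (0.374 to 0.656), with a gap beyond Dixon's 95% critical value of 0.829 for 4 samples. Tnnt1 in the same library (3.33 FPKM, against 0.0906 to 0.240) passed the same value. Prkcd in ACLP-NT 49 (9.04 FPKM) stood apart from the other 4 ACLP-NT libraries (3.89 to 4.79), beyond the critical value of 0.710 for 5 samples. These were 3 of 27 groups of values tested, and chance alone gives about 1 in 20.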

How the results depend on the processing

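DESeq2 called 9 genes in ACLP-NT against saline, 16 in Aducanumab against saline and 3 in ACLP-NT against Aducanumab, where edgeR called 0. Leaving out 1 library gave 0 to 1 called genes in each comparison, none of them among the 9 markers. The smallest adjusted p of a marker was 0.0994 (DESeq2, Cplx3, Aducanumab against saline) over the alternatives that kept all libraries of the groups compared, and 0.381 with 1 library left out. Those alternatives gave 231 fold changes of markers, and 0 changed direction. With 1 library left out, 334 of 351 kept it and 17, in 10 results, did not. The 351 include fits that left out a library of the group not compared, where the fold change could hardly move. In ACLP-NT against saline, for example, Tbr1 was -0.27 with and without Aducanumab 50. The share that kept direction therefore overstates how stable the results were. In ACLP-NT against saline the ranges were -0.112 to 0.0652 for Tcf7l2, -0.25 to 0.52 for Tnnt1 and -0.11 to 0.24 for Prkcd. In Aducanumab against saline they were -0.0601 to 1.39 for Tcf7l2, -0.10 to 2.73 for Tnnt1 and -0.13 to 0.41 for Synpo2, each negative only without Aducanumab 50. In ACLP-NT against Aducanumab they were -0.35 to 0.0788 for Rspo1, -1.41 to 0.0376 for Tcf7l2, -2.58 to 0.14 for Tnnt1 and -0.17 to 0.11 for Vav3. Pairs past the threshold numbered 9 on log2(FPKM + 1) and 8 with group means subtracted, against 5, and 2 to 7 with 1 library left out. The count of 8 may be too high, since its permutations did not allow for the means subtracted. Subtracting group means lost Cplx3 and Tshz2, and the pairs it gained were all of thalamus or midbrain genes. The causes were not tested. A mean FPKM of at least 1 left Tcf7l2, Tnnt1, Synpo2 and Rspo1 without a value. No paired analysis was possible because the 3 groups share no replicate number. Depth limits Tnnt1 most, with 9 to 56 counts in 12 libraries.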
